A study of Mus musculus with 6 samples.

Results

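Transcripts of 8 genes of translation elongation and termination were measured in mouse tibialis anterior: Eef1a1, Eef1a2, Eef1b2, Eef1g, Eef2, Eef2k, Gspt1 and Etf1. Every probe whose platform annotation gives one of these symbols was taken, 18 of the 45281 probes on the Illumina bead array, for 8 of the 19057 genes with a symbol there, and each is reported on its own. The genes were chosen because, in the same comparison, Eef1a1 was higher and Gspt1 lower in Neb SH3-deleted muscle and Eef2 varied between arrays. The differences between the genotypes in these genes are therefore given as a description, without a test. The tibialis anterior is a fast hindlimb muscle, and all animals were male, 8 weeks old and of a mixed Sv129/Black Swiss background. The 3 Neb SH3-deleted mice lack the SH3 domain of nebulin, the giant protein of the thin filament, at its Z-disc end, and the 3 wild type mice carry the unmodified gene. The samples are biological triplicates per the series' design text, with 1 array each, and whether the animals were littermates is not given in the sources used here.

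During elongation, eEF1A carries aminoacyl-tRNA to the ribosome as a complex with GTP, the eEF1B subunits recharge it with GTP, and eEF2 moves the ribosome to the next codon. The calcium- and calmodulin-dependent eEF2 kinase inhibits eEF2 by phosphorylation. At a stop codon eRF1, the product of Etf1, recognises the codon and the GTPase eRF3, the product of Gspt1, drives release of the finished chain. Mammals have a pair of eEF1A proteins. Eef1a1 is expressed in most cells, and in mouse muscle it gives way to Eef1a2 after birth, so in adult muscle Eef1a2 is the form of the fibres.

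The upstream sequences of Eef1a1, Eef2 and Gspt1, the genes whose values led to this choice, are shown first because the members differ in their promoter letters. Each line gives the 200 bases before the annotated gene start, 5′ to 3′ on the gene's strand, from RefSeq (GRCm38.p6). The capitals mark matches, on either strand, to TATAA (the core of the TATA box), CCAAT (the box bound by NF-Y), GGGCGG (the GC box), CACGTG (the E-box), TGACGTCA (the cAMP response element) or GCATGCGC (a core of the NRF1 motif).
Eef1a1 (chr9:78481725-78481924, minus strand): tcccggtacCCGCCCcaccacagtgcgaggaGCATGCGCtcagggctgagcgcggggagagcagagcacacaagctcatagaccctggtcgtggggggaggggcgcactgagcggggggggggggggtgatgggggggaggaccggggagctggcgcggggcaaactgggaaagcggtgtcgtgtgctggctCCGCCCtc
Eef2 (chr10:81176431-81176630, plus strand): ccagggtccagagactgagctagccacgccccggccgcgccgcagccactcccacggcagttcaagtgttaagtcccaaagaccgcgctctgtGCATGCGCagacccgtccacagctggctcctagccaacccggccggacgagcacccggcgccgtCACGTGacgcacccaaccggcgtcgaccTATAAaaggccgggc
Gspt1 (chr16:11254326-11254525, minus strand): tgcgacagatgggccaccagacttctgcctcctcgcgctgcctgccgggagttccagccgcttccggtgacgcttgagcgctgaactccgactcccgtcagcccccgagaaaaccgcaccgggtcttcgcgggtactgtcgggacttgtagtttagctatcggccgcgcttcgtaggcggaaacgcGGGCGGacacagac
Windows of 300 bases, from 250 before the annotated start to 50 after it, were matched for 6 of the 8 genes, with 3 windows for Eef2k. No window was matched for Eef1g, which had none in the reference used. Member windows on 1 chromosome were left out of the matching, and none was matched for Etf1. GCATGCGC was present in the windows of Eef1a1, beginning at position -169, and of Eef2, at -107, and in 2.71% of all 32851 windows. TATAA was present in the same pair of windows, at position 26 after the start in Eef1a1 and at -15 in Eef2, and in 24.9% of all windows. The Eef2 window also held CACGTG, as did an Eef2k window and 7.15% of all windows, and TGACGTCA, as did 1.79%. The Gspt1 window held 1 match to GGGCGG, a match that 35.7% of all windows have, and the Eef1a2 window likewise 1. The Eef1a1 window held 2 such matches, and the Eef2k windows held 2, 1 and 0. The 6 motifs had no match in the Eef1b2 window, and CCAAT, present in 37.4% of all windows, had none in any window of these 6 genes. These are matches of letters, and annotated starts can lie away from the starts used in muscle.

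The arrays were dim. Between 4000 and 5844 probes per array were above background, meaning a detection p under 0.05, and 71.6% of probes were so on no array. The 3422 probes above background on at least 3 of the 6 arrays were tested (7.56% of all probes), and 12 of the 18 member probes were among them, 9 of them above background on all 6 arrays. Levels are given below as log2 intensity after background correction and quantile normalization, unless called signal, which is the linear intensity as deposited. Neb itself had 1 probe, above background on 0 of 6 arrays, so the genotype labels could not be checked on it. Of 14 skeletal muscle fibre marker genes with a probe, among them Acta1, Ckm and Myh4, 13 were tested, so skeletal muscle as the labelled tissue was borne out by its markers. In a principal component analysis of the tested probes, component 1 (32.6% of variance) placed Neb SH3-deleted replicate 1 (12.4) and wild type replicate 2 (10.7) apart from the other arrays, at -6.64 to -5.09. Differences without that pair of arrays are therefore given beside the main ones. In bulk tissue fewer cells of a type and less RNA per cell cannot be told apart.

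**Figure D1:**
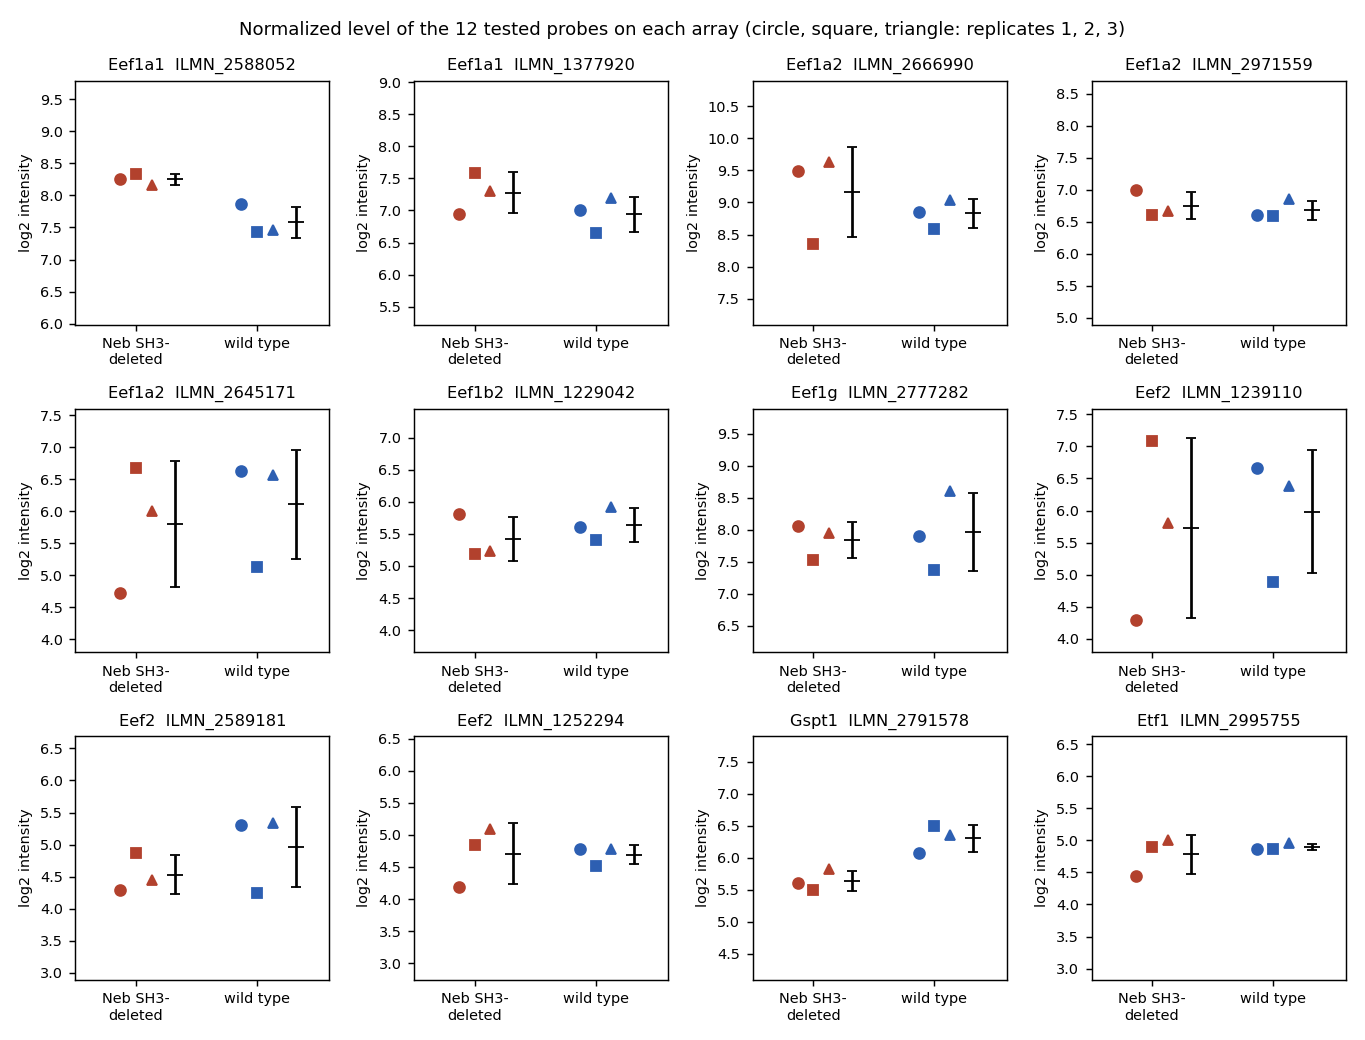
Normalized log2 intensity of the 12 tested probes on each array, with Neb SH3-deleted arrays (red) left of wild type arrays (blue). Bars give the mean and SD (n = 3 each), and every panel spans the same log2 range. The groups separate for Eef1a1 ILMN_2588052 and Gspt1 ILMN_2791578, and the spread is widest for Eef2 ILMN_1239110.

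Across the 12 tested member probes the mean was higher in Neb SH3-deleted muscle for 5 and lower for 7, beside 43.9% higher among all tested probes. The groups did not overlap for 2 member probes, 1 higher and 1 lower, beside 9.06% of all tested probes (3.24% with higher and 5.82% with lower values). As these genes were picked on this comparison, nothing is read from that count. In limma's fit over all tested probes, 0 of 3422 passed an adjusted p of 0.05 (0% called, smallest adjusted p 0.984). Without adjustment 147 probes (4.3%) had a p under 0.05, of which 56 were higher and 91 lower.

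Eef1a1, the eEF1A form of most cell types, had the largest higher difference of the member probes. For its brightest probe, ILMN_2588052, the signal was 310.0, 452.0 and 309.5 in Neb SH3-deleted replicates 1, 2 and 3, against 360.4, 258.2 and 234.1 in wild type replicates 1, 2 and 3. On this deposited scale the groups overlapped, since wild type replicate 1, the array with the most probes above background, was brighter than both dimmer Neb SH3-deleted arrays. After normalization the levels were 8.25, 8.34 and 8.17 in Neb SH3-deleted muscle, against 7.86, 7.43 and 7.46 in wild type muscle, and the groups no longer overlapped. The means were 8.25 ± 0.08 in Neb SH3-deleted and 7.58 ± 0.24 in wild type muscle (SD, n = 3 each), a log2 difference of 0.67 with a standard error of 0.15, or 1.59-fold higher. The separation depended on the scaling: with median scaling the levels were 7.90, 8.58 and 7.86 in Neb SH3-deleted muscle, against 8.16, 7.59 and 7.37 in wild type muscle, so the groups overlapped again and the difference was 0.40.

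The second Eef1a1 probe, ILMN_1377920, was also above background on all 6 arrays. Its levels were 6.95, 7.59 and 7.31 in Neb SH3-deleted muscle and 7.0, 6.65 and 7.19 in wild type muscle. The groups overlapped, and the log2 difference was 0.34 with a standard error of 0.24. Within each group this probe was lowest on the array that stood apart, Neb SH3-deleted replicate 1 and wild type replicate 2. The third probe, ILMN_1244894, was above background on 0 Neb SH3-deleted and 2 wild type arrays and is given no fold. Without both arrays that stood apart, the differences of the measured pair of probes were 0.59 and 0.36. Eef1a1 has near-identical processed copies elsewhere in the genome, which its probes may also read.

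Eef1a2, the eEF1A form of adult muscle fibres, showed no shared direction among its 3 probes. ILMN_2666990 was at 9.49, 8.36 and 9.63 in Neb SH3-deleted muscle, against 8.85, 8.59 and 9.04 in wild type muscle. Neb SH3-deleted replicate 2 was the lowest of all arrays and the other Neb SH3-deleted arrays were the highest, so the log2 difference of 0.33 had a standard error of 0.42. It was 0.05 without both arrays that stood apart and -0.03 with median scaling. ILMN_2971559 was flat, at 7.0, 6.61 and 6.66 in Neb SH3-deleted muscle and 6.60, 6.59 and 6.86 in wild type muscle, a difference of 0.07 that turned to -0.19 with median scaling. ILMN_2645171 was at 4.73, 6.67 and 6.0 in Neb SH3-deleted muscle, against 6.63, 5.13 and 6.57 in wild type muscle. It was low on Neb SH3-deleted replicate 1 and wild type replicate 2 and high elsewhere, and its log2 difference was -0.31 with a standard error of 0.75. The differences of its 2 brightest probes, ILMN_2666990 and ILMN_2971559, were 0.26 apart, a gap at the 69 percentile of that between the 2 brightest probes of the 352 genes with at least 2 tested probes. Such pairs agreed in sign for 199 of the 352 genes (56.5%), with a median gap of 0.17. The widest gap among the 3 Eef1a2 probes was 0.64, between ILMN_2666990 and ILMN_2645171.

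**Figure D2:**
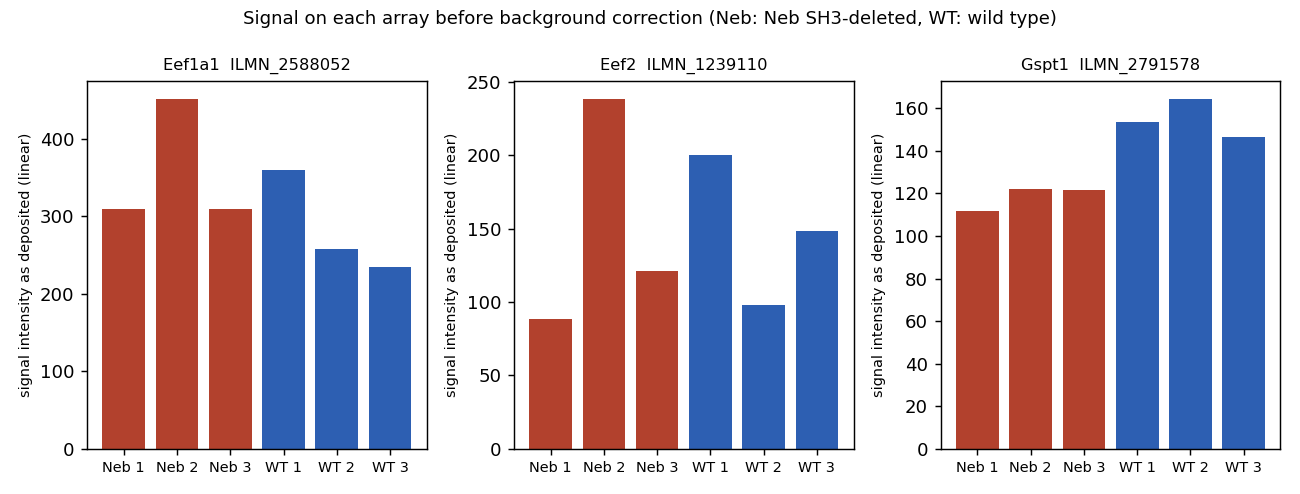
Signal intensity as deposited (linear scale from 0) on each array for 1 probe each of Eef1a1, Eef2 and Gspt1, Neb SH3-deleted arrays in red and wild type arrays in blue. Wild type replicate 1 lies among the Neb SH3-deleted arrays for Eef1a1, Eef2 differs more within each group than between them, and all Gspt1 signals are lower in Neb SH3-deleted muscle.

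The subunits of the eEF1B exchange factor did not separate the genotypes. Eef1b2, which encodes the nucleotide exchange subunit eEF1B alpha, had 1 tested probe of 3 (ILMN_1229042), at 5.81, 5.19 and 5.24 in Neb SH3-deleted muscle and 5.61, 5.41 and 5.92 in wild type muscle. Its log2 difference of -0.23 (standard error 0.25) became -0.54 without both arrays that stood apart. The other pair of Eef1b2 probes was above background on 0 arrays. Eef1g, the gamma subunit that anchors the complex, was at 8.06, 7.53 and 7.95 in Neb SH3-deleted muscle and 7.90, 7.38 and 8.60 in wild type muscle. Wild type replicates 3 and 2 were the highest and the lowest of all 6 arrays, and the difference was -0.12 with a standard error of 0.39. It turned to 0.21 without wild type replicate 3 and was -0.51 without both arrays that stood apart.

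Eef2, the translocase, differed more between arrays of 1 genotype than between genotypes, and with 1 array per animal the animal and the array cannot be told apart. Its brightest probe, ILMN_1239110, gave signals of 88.3, 238.6 and 121.4 in Neb SH3-deleted replicates 1 to 3, against 200.2, 98.3 and 148.3 in wild type replicates 1 to 3. The normalized levels were 4.29, 7.09 and 5.81 in Neb SH3-deleted muscle and 6.67, 4.88 and 6.39 in wild type muscle. The probe was not above background on Neb SH3-deleted replicate 1 (detection p 0.182), and the arrays that stood apart were the lowest of their groups. Its range over the 6 arrays was 2.80 log2 units, where the median range of all tested probes was 0.57, and its within-group SD was 1.20. As Eef2 was chosen for its spread, nothing is read from that comparison. The difference between the genotypes was -0.25 with a standard error of 0.98. Leaving out Neb SH3-deleted replicate 1 gave 0.47, and leaving out replicate 2 of that group gave -0.93.

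The other Eef2 probes were dimmer. ILMN_2589181 was at 4.29, 4.87 and 4.45 in Neb SH3-deleted muscle, against 5.31, 4.24 and 5.34 in wild type muscle, and was above background on 2 arrays of each group. Its log2 difference of -0.43 had a standard error of 0.40. ILMN_1252294 was at 4.18, 4.85 and 5.10 in Neb SH3-deleted muscle and 4.78, 4.52 and 4.78 in wild type muscle, a difference of 0.02. Both were lowest on Neb SH3-deleted replicate 1 and wild type replicate 2 within their groups, as ILMN_1239110 was.

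Of the tested member probes, 6 of 12 were lowest in their group on both arrays that stood apart: all 3 of Eef2, 1 each of Eef1a1 and Eef1a2, and that of Etf1. Among all tested probes 505 (14.8%) had that order, and 471 (13.8%) were highest on both, as were 0 member probes. Eef2 ILMN_1239110 and Eef1a2 ILMN_2645171 ranked 7 and 11 of 3422 by the size of their weight on the first component. These probes share arrays and a normalization, and Eef2 was chosen for its spread, so this describes the arrays at hand. What sets the arrays apart was not tested.

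**Figure D3:**
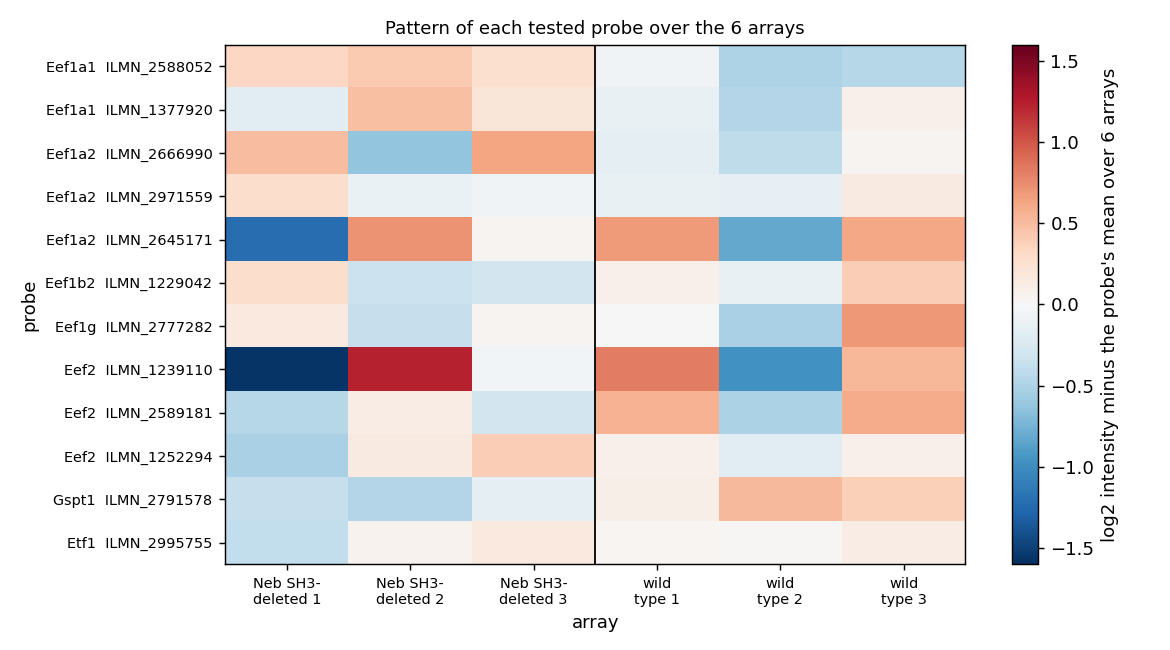
Log2 intensity of each tested probe minus its own mean over the 6 arrays (colour), with Neb SH3-deleted arrays left of the line and wild type arrays right of it. Eef2 ILMN_1239110 and Eef1a2 ILMN_2645171 are both lowest on Neb SH3-deleted replicate 1 and wild type replicate 2, while the other Eef1a2 probes are not.

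Eef2k, the kinase that inhibits eEF2, was not measured. ILMN_2582798 was above background on 1 Neb SH3-deleted and 1 wild type array, with signals of 90.1 to 92.4 in Neb SH3-deleted and 87.1 to 89.5 in wild type muscle. ILMN_2431150 was above background on 0 Neb SH3-deleted arrays and 1 wild type array, with signals of 84.6 to 85.8 in Neb SH3-deleted and 86.3 to 97.7 in wild type muscle. No fold is given for either.

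Gspt1, which encodes the release factor eRF3, had the largest lower difference of the member probes. ILMN_2791578 gave signals of 111.8, 121.9 and 121.6 in Neb SH3-deleted replicates 1 to 3, against 153.6, 164.6 and 146.5 in wild type replicates 1 to 3, so the groups were apart before any processing. The normalized levels were 5.60, 5.50 and 5.82 in Neb SH3-deleted muscle and 6.07, 6.49 and 6.35 in wild type muscle. The means were 5.64 ± 0.16 in Neb SH3-deleted and 6.30 ± 0.21 in wild type muscle (SD, n = 3 each), a log2 difference of -0.66 with a standard error of 0.16. The groups stayed apart with cyclic loess and with median scaling too. As Gspt1 was chosen for being lower in this comparison, nothing is read from that. The difference was -0.55 without both arrays that stood apart. The size followed the background correction: without it the difference was -0.32. The other Gspt1 probe, ILMN_1216700, was above background on 0 arrays, so the result rests on 1 probe.

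Etf1, which encodes the stop codon reader eRF1 that works with eRF3, was at 4.45, 4.90 and 5.0 in Neb SH3-deleted muscle and 4.87, 4.86 and 4.96 in wild type muscle. Its 1 probe, ILMN_2995755, had a low value only on Neb SH3-deleted replicate 1, and the log2 difference of -0.12 (standard error 0.17) was 0.05 without that array.

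**Figure D4:**
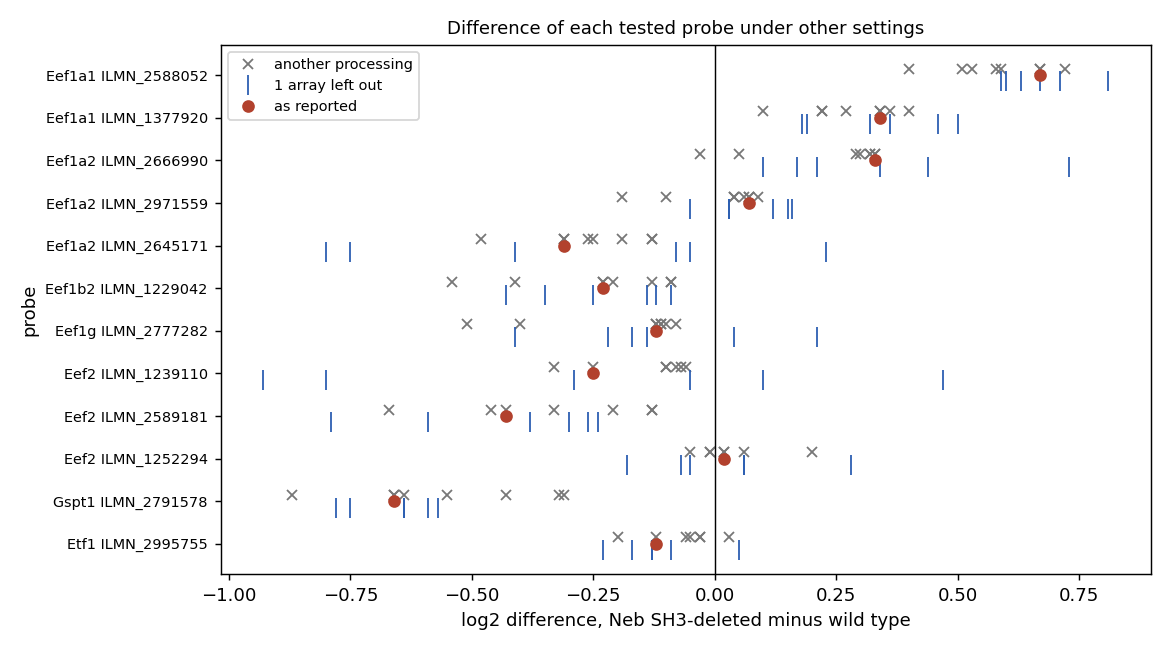
Log2 difference (Neb SH3-deleted minus wild type) of each tested probe as reported (red), with other processing or both arrays that stood apart left out (crosses) and with 1 array left out (blue lines). All values stay above 0 for Eef1a1 ILMN_2588052 and ILMN_1377920 and below 0 for Gspt1 ILMN_2791578, Eef1b2 ILMN_1229042 and Eef2 ILMN_2589181, and the other probes have values on both sides. Eef1a1 and Gspt1 were chosen on this comparison, so nothing is read from their side of 0.

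The tested probes of other genes closest in pattern were found by the root mean square (RMS) difference between values centred on each probe's mean over the 6 arrays. Closest to Eef1a1 ILMN_2588052, among 2962 candidates, were probes of Prnp, the prion protein gene (0.11), Col6a1, a collagen VI chain (0.12), and Polr2l, an RNA polymerase subunit (0.17), where the median candidate was at 0.42. Closest to Gspt1 ILMN_2791578 were probes of Glrx (glutaredoxin, 0.10), Phpt1 (a phosphohistidine phosphatase, 0.13) and Bag1 (a chaperone cofactor, 0.14), with a median of 0.41. Closest to Eef2 ILMN_1239110 was Eef1a2 ILMN_2645171 itself (0.27), followed by Tead1, a transcription factor (0.42), and Pfkm, muscle phosphofructokinase (0.42), with a median of 1.00. Pfkm was at 4.48, 8.17 and 6.92 in Neb SH3-deleted muscle and 7.58, 5.04 and 7.49 in wild type muscle, with the same arrays lowest.

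Because Eef1a1 is also the form of non-muscle cells, markers of other cell types are set beside it. Fibroblast and matrix markers had 7 of 11 genes tested, with 7 of 10 probes higher, and their summed level (linear normalized intensity) ranged from 561 to 769 in Neb SH3-deleted muscle, against 341 to 575 in wild type muscle. In replicates 1, 2 and 3 these sums were 612, 561 and 769 in Neb SH3-deleted muscle, against 550, 341 and 575 in wild type muscle. Erythrocyte genes had 3 of 5 genes tested, with 8 of 8 probes higher and sums of 881 to 984 in Neb SH3-deleted muscle, against 462 to 753 in wild type muscle. The endothelial and pericyte list had 3 of 8 genes tested and 0 of 3 probes higher, with sums of 87.6 to 139 in Neb SH3-deleted and 124 to 128 in wild type muscle, and Tek, Cldn5 and Pdgfrb above background on no array. Macrophage and leukocyte sums ran from 43.0 to 79.9 in Neb SH3-deleted muscle and 46.1 to 75.4 in wild type muscle (2 of 7 genes tested, Ptprc and Adgre1 above background on no array). Of the adipocyte list only Lep and Car3 were tested (2 of 7 genes), and Plin1, Fabp4 and Retn were above background on no array. The sums of Lep and Car3 ran from 83.8 to 134 in Neb SH3-deleted and 93.7 to 171 in wild type muscle, so they are not read as a level of adipocytes. Of the satellite cell and myoblast list only Des and Itga7 were tested (2 of 5 genes), and Pax7 and Myf5 were above background on no array. The sums of Des and Itga7 ran from 325 to 369 in Neb SH3-deleted and 309 to 385 in wild type muscle, so they are not read as a level of satellite cells. Of the nerve and Schwann cell genes 0 of 5 were tested. By limma's adjusted p 0 marker probes passed, and the part of these cells in the Eef1a1 values was not tested.

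The rest of the translation machinery was compared through 8 lists of other genes. Of their 137 genes 122 had a probe and 46 were tested, with 59 probes, of which 28 were above and 31 below wild type in Neb SH3-deleted muscle (47.5% higher, against 43.9% of all tested probes). The median log2 difference was -0.02, against -0.03 over all tested probes. None passed the adjusted threshold (limma, 0 of 59) and 0 had an unadjusted p under 0.05. Every one of these differences lay between -0.45 and 0.35. The range of the members is not compared with this, as Gspt1 and Eef1a1 were chosen for their differences.

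Initiation factors, which bring the ribosome to the start codon, had 23 probes of 16 genes tested, 10 higher and 13 lower (median -0.03). Those of smallest p were Eif4g2, a relative of the scaffold eIF4G, at -0.38 (95% interval -0.77 to 0.01) and Eif2b1, a subunit of the exchange factor for eIF2, at -0.31 (-0.67 to 0.05). Eif2b1 was at 4.78, 4.92 and 5.18 in Neb SH3-deleted muscle and 5.34, 5.27 and 5.18 in wild type muscle (replicate 3 of both groups equal at 2 decimals). Its groups did not overlap, as for 1 of the 59 list probes, beside 9.06% of all tested probes. Eif4g2 was above background on 1 Neb SH3-deleted and 3 wild type arrays.

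Regulators of eEF2 kinase and its target (mTORC1, S6 kinase, AMPK, calmodulin and protein phosphatase 2A) had 10 probes of 10 genes tested, 4 higher and 6 lower (median -0.02). Both catalytic subunit genes of protein phosphatase 2A, which can dephosphorylate eEF2, had lower means that did not pass. Ppp2ca was at -0.45 (-0.95 to 0.05) and Ppp2cb at -0.33 (-0.73 to 0.07). Ppp2ca levels were 6.21, 5.58 and 6.41 in Neb SH3-deleted muscle and 6.76, 6.48 and 6.32 in wild type muscle, so the groups overlapped through replicate 3 of each.

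Cytosolic aminoacyl-tRNA synthetases, which charge the tRNAs that eEF1A carries, had 11 probes of 8 genes tested, 7 higher and 4 lower (median 0.07). Aimp2, a scaffold of the multisynthetase complex, was at 0.33 (-0.20 to 0.87), and at -0.05 without both arrays that stood apart, while its second tested probe was at 0.11. Qars1, the glutaminyl-tRNA synthetase gene, was at 0.31 (-0.26 to 0.87) on 1 probe and at -0.17 (-0.58 to 0.24) on another, so its probes differed in sign. Of the enzymes that modify eEF1A and eEF2, 2 probes were tested: Eef1akmt1, a lysine methyltransferase of eEF1A, at 0.33 (-0.11 to 0.78) and Dph3, of diphthamide synthesis on eEF2, at -0.15 (-0.62 to 0.32). Other cytosolic elongation genes had 4 probes tested, 3 of them of Eif5a, a factor for difficult peptide bonds, at -0.20 (-0.74 to 0.34), -0.10 (-0.57 to 0.36) and 0.04 (-0.38 to 0.47). In termination, recycling and rescue, Eif2d was at 0.11 (-0.34 to 0.56) and Mcts1 at -0.03 (-0.37 to 0.30), the 2 probes tested. Partners of the release factors in nonsense-mediated decay and at the poly(A) tail had 4 probes tested, with Smg1 at 0.23 (-0.30 to 0.76) and Pabpc4 at -0.21 (-0.70 to 0.28) on 1 probe and -0.03 on another. In mitochondria, Mrpl58, a ribosomal peptidyl-tRNA hydrolase, was at 0.35 (-0.10 to 0.79) and Tufm, the mitochondrial counterpart of eEF1A, at -0.20 (-0.64 to 0.25), of 3 probes tested.

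**Figure D5:**
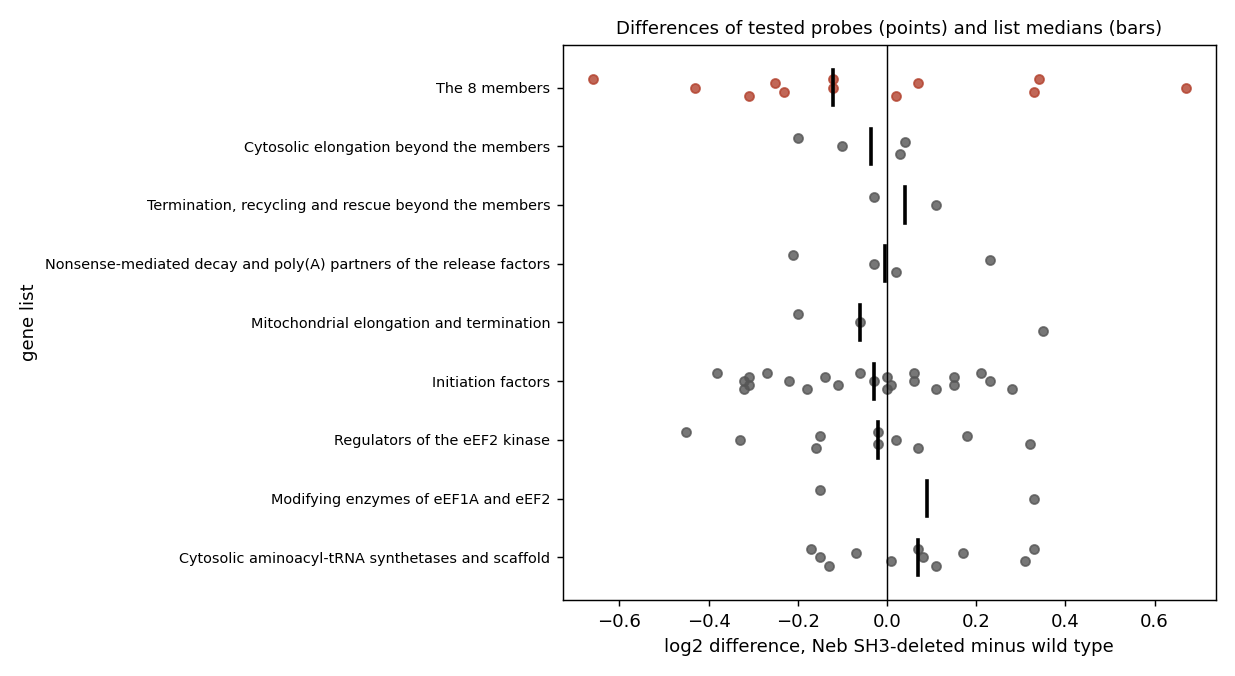
Log2 difference (Neb SH3-deleted minus wild type) of every tested probe (points) of the 8 members, chosen partly for these differences (red), and of the 8 lists of other translation genes (grey), with the list median as a bar. The list probes lie between -0.45 and 0.35, and the members reach from -0.66 (Gspt1) to 0.67 (Eef1a1).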

How the data were processed

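Per the file headers, the authors deposited the average signal intensity of 45281 probes per array, each with its detection p-value. A table of processed log2 values was deposited too. The submitters' processing notes name lumi, without a version or settings. Per the labels' protocols, Trizol-extracted RNA was made into biotinylated cRNA.

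Signals were background corrected with limma's normexp from detection p-values (offset 16), taken to log2 and quantile normalized. Those detected (p under 0.05) on at least 3 arrays were compared with limma 3.58.1 (R 4.3.3, lmFit, eBayes, two-sided, Benjamini-Hochberg over 3422 probes). The path was also run on simulated arrays with known changes. None of those was made to stand apart as arrays here do, so nothing about these data is read from that run. The number of arrays, the spread between them and the signal over background limit the precision. Symbols came from the platform annotation (34885 probes with 1 symbol, 18 with several, 10378 with none), and list symbols were matched through RefSeq. Samples were grouped by their labels, which also number the replicates. The members, lists and alternatives were chosen with earlier results of these data known. Named genes are all member probes, the 2 probes of smallest p per list, the 3 closest patterns to the brightest probe of Eef1a1, Eef2 and Gspt1, and cell type markers. All columns of sample values were used.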

Additional observations from a re-analysis of the deposited data

How the results depend on the processing

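In 17 of 17 alternatives 0 probes and 0 list probes passed an adjusted p of 0.05 (limma), with 36 to 1895 probes at an unadjusted p under 0.05, the extremes coming from the strictest filter (1141 probes tested) and from no filter (45281). This includes the replicate block, with 0 passing and 117 at an unadjusted p under 0.05. Deviations of same-numbered samples correlated at -0.22, -0.18 and 0.09, so the numbers were not treated as pairs. The number of probes whose groups do not overlap, 310 as reported, was 4360 without a filter, 95 with a detection p under 0.01 on all 6 arrays, and 1100 without both arrays that stood apart, where 2 arrays a group remain. Among member probes, Gspt1 was at -0.32 without background correction and -0.43 with an offset of 50. It was at -0.31 in the deposited values and -0.87 with median scaling. Eef1a1 ILMN_2588052 was at 0.40 with median scaling and ranged from 0.59 to 0.81 with 1 array left out. Both were chosen on this comparison. As their groups did not overlap, leaving out arrays could not turn their sign, and the filters left their values unchanged. Nothing is therefore read from their sign across these settings. Eef1b2 was at -0.54 without both arrays that stood apart. Eef2 ILMN_1239110 ranged from -0.93 to 0.47 with 1 array left out, and the cause was not tested. A block for the slide or scan was not run, as no label or header names one. Signal over background limits Eef2k and the dim probes.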
